A study of Mus musculus with 9 samples.

Results

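The mitochondrial respiratory chain genes described here are nuclear genes for the subunits and named assembly factors of complexes I to V and for cytochrome c. They were chosen by symbol alone: every probe set annotated with exactly 1 symbol that starts with Nduf, Uqcr or Atp5, or with Cox and a number, or that reads Sdha, Sdhb, Sdhc, Sdhd, Cyc1 or Cycs. This gave 165 of 36701 probe sets, for 90 genes, and left out 17 probe sets that were annotated with several symbols. The RNA came from 3 lines of mouse stromal cells, and each line was hybridised once to every one of 3 Affymetrix array types, named MG-U74A, B and C, which makes 9 arrays. AGM-s3-A9 comes from the aorta-gonad-mesonephros (AGM) region of the embryo and supports hematopoiesis. OP9 comes from the calvaria of newborn mice and also supports it. AGM-s3-A7 comes from the AGM region and does not support it, and it is the line against which the supportive lines are set. The labels name no treatment, genotype or passage, and each group is a single cell line with 1 array per type, so no difference below has a replicate check, and the support of hematopoiesis cannot be told apart from any other property in which the lines differ.

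The respiratory chain sits in the inner mitochondrial membrane. Complex I takes electrons from NADH and complex II takes them from succinate; both pass them through coenzyme Q to complex III, then by the small carrier cytochrome c to complex IV, which reduces oxygen. Complexes I, III and IV pump protons, and complex V, the ATP synthase, lets them flow back and makes ATP. Most subunits are nuclear genes whose products are imported, while a core set is encoded by mitochondrial DNA; no probe set of the 3 arrays was annotated with a mitochondrially encoded subunit, so the values below cover the nuclear genes only.

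Values are intensities after quantile normalization within an array type, on a linear scale without unit, and folds are formed between lines for the same probe set, never between probe sets. The words bright and dim say only how far a probe set lay above the detection level. A probe set counted as detected in a line when it exceeded 49.0 on MG-U74A, 52.8 on MG-U74B or 61.6 on MG-U74C, the higher of the array type's median and the 95th percentile of 34 negative control probe sets. Lower values were raised to that level before a ratio was formed, and a fold against such a line is given as "at least". A probe set was compared in a pair if it was detected in at least 1 line of the pair, and "higher" and "lower" as counts mean at least 1.5-fold. A pair of measured spreads gives a scale for differences between array types and between probe sets only. Neither holds the variation between cultures or RNA preparations of a line, which these arrays cannot show. Control probe sets repeated on the 3 array types, with a mean intensity of at least 128, gave log2 ratios with an SD of 0.22 for AGM-s3-A9 over AGM-s3-A7, 0.17 for OP9 over AGM-s3-A7 and, in the pair of supportive lines, 0.22 for AGM-s3-A9 over OP9 (17 controls each). Different probe sets of 1 respiratory chain gene spanned a median of 0.34, 0.30 and 0.38 on the log2 scale in the same order of pairs (11, 13 and 14 genes). The largest span was 1.12. These spans include ratios formed against the detection level. With only probe sets detected in both lines, the medians were 0.34, 0.21 and 0.43 (9, 10 and 9 genes) and the largest span 0.80. As deposited, the 3 arrays of a type differed in brightness by up to 61.1%, and the median log2 ratio of AGM-s3-A9 over AGM-s3-A7 was 0.62 on MG-U74A but -0.32 on MG-U74B and MG-U74C, which the normalization removed.

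The lines were checked against cell type markers. Of 9 stromal and fibroblast markers, 8 were detected in AGM-s3-A9, 7 in OP9 and 8 in AGM-s3-A7, with summed levels of 17897, 9496 and 19220; Vim was below detection in all 3 lines and Thy1 in OP9. None of the 5 hematopoietic markers on the arrays and none of 6 endothelial markers was detected in any line (summed levels 28.3 to 38.3 and 34.3 to 62.9). Of 5 epithelial markers, Cdh1 and Epcam were detected in all 3 lines (summed levels 223, 232 and 268 over the list). Of 8 muscle markers, Actc1 was detected in all 3 lines and Myh4 in OP9, with summed levels of 814, 455 and 955. The part of these differences in the results was not tested. In bulk samples, fewer cells of a type and less RNA per cell cannot be told apart.

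Most of the chain was measurable in all 3 lines. At least 1 line detected 93 of the 165 probe sets (75 of 90 genes), all 3 lines detected 81 (70 genes), and 72 were detected in none. The share detected in at least 1 line was 56.4%, against 38.1% of all probe sets, and on MG-U74A alone 69.2% of 107 against 55.5%. By complex, detected probe sets numbered 40 of 68 for complex I, 5 of 7 for complex II, 9 of 12 for complex III, the 1 for cytochrome c, 21 of 51 for complex IV and 17 of 26 for complex V. Of 28 probe sets for assembly factors, the proteins that build the complexes without staying in them, 11 were detected. Subunits with widespread use also lay among the undetected: no probe set of Ndufa1, Ndufc2, Ndufs4, Atp5g1 or Cox8a passed the level, and the single Cox8a probe set read 9.05 in AGM-s3-A9, 5.56 in OP9 and 5.93 in AGM-s3-A7. A value below detection on these arrays is a statement about a probe set and not about the absence of the transcript.

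The chain's median range over the lines was smaller than that of all probe sets. Over the 81 probe sets detected in all 3 lines, the highest line was a median of 1.31-fold above the lowest. This median was 1.43-fold over all 10190 probe sets detected in all lines, 1.37-fold for 39 proteasome probe sets and 1.14-fold for 31 cytosolic ribosomal ones. On MG-U74A alone it was 1.31-fold for the chain, 1.30-fold for mitochondrial ribosomal proteins and 1.44-fold for all probe sets. Intensity was not matched. Of the chain's 81 probe sets, AGM-s3-A9 was the highest line for 27, OP9 for 42 and AGM-s3-A7 for 11, and for 1 (Sdha) the AGM lines tied. AGM-s3-A9 was the lowest line for 27, OP9 for 14 and AGM-s3-A7 for 40. OP9 was thus highest for 51.9% of the chain's probe sets, against 39.7% of all probe sets, and AGM-s3-A7 was lowest for 49.4%, against 32.1%. Proteasome probe sets were highest in OP9 in 23 of 39 and lowest in AGM-s3-A7 in 17 of 39. OP9 was the highest line most often in complex I (21 of 35) and complex IV (12 of 18), whereas AGM-s3-A9 was highest for 3 of 5 probe sets of complex II, besides the tie, and 5 of 9 of complex III, and complex V was spread evenly, with AGM-s3-A9 and OP9 highest for 5 each and AGM-s3-A7 for 3.

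**Figure D1:**
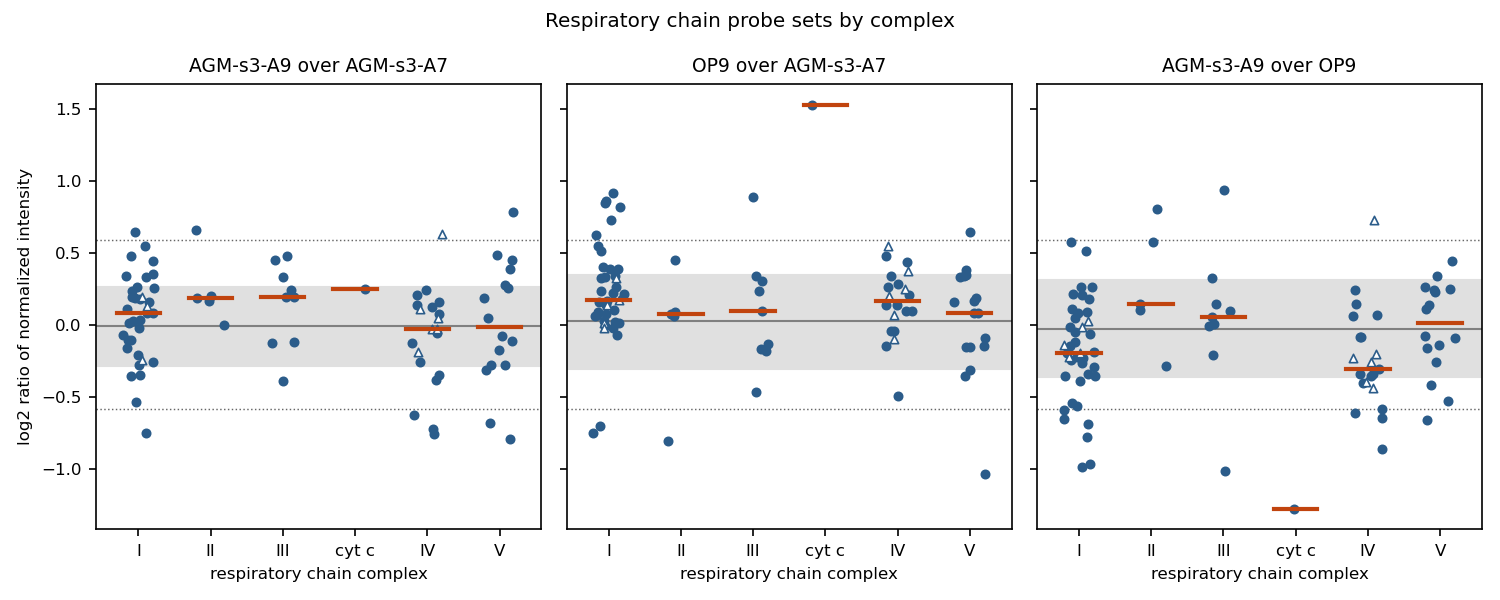
Log2 ratios of normalized intensity for each compared respiratory chain probe set, by complex (cyt c, cytochrome c), for AGM-s3-A9 over AGM-s3-A7, OP9 over AGM-s3-A7 and AGM-s3-A9 over OP9; filled circles are subunits, open triangles assembly factors, red bars medians, the grey line and band the median and the 25th to 75th percentile of all compared probe sets, and dotted lines 1.5-fold. The median for complex I was 0.08, 0.17 and -0.19 in the 3 panels and that for complex IV -0.03, 0.17 and -0.30, while cytochrome c stands alone at 1.53 in the OP9 over AGM-s3-A7 panel.

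Between OP9 and AGM-s3-A7, the chain was slightly higher in OP9. The log2 ratio was positive for 69 of 92 probe sets (75%), against 52.6% of all 13467 compared probe sets. Its median was 0.15 (25th to 75th percentile 0.01 to 0.34), against 0.03 over all of them. The median is smaller than the span between probe sets of 1 gene, so it describes the list and not any single gene. At 1.5-fold, 9 probe sets were higher and 4 lower in OP9. The background was 13.7% of all compared probe sets higher and 13.1% lower, so that both counts lay below the numbers that share would give. With the floor at the array median 15 of 110 were higher and 9 lower, against 16.6% and 16.1% of all, and with no floor 14 of 92 were higher, against 17.7%. At 2-fold 1 was higher and 1 lower, against 4.77% and 5.52% of all. The medians by complex were 0.17 for complex I, 0.08 for complex II, 0.09 for complex III, 0.17 for complex IV and 0.08 for complex V. No probe set of complex IV passed 1.5-fold in either direction. Some probe sets carry a name suffix by which the manufacturer marks probes that may not be specific or that break its design rules; of the 9 higher, those of Ndufa5, Ndufb2 and Atp5d do, and 5 were left without such probe sets.

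Cytochrome c showed the largest difference of the chain. Cycs encodes the soluble carrier between complexes III and IV, which also starts caspase activation when it leaves the mitochondrion. Its probe set read 68.9 in AGM-s3-A9, 167 in OP9 and 58.0 in AGM-s3-A7. OP9 stood well above both AGM lines, which lay near the detection level of 49.0. The level was 2.88-fold higher in OP9 than AGM-s3-A7, and 2.42-fold lower in AGM-s3-A9 than OP9.

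In complex I, 6 of 26 compared probe sets of accessory subunits were higher in OP9 than AGM-s3-A7 (23.1%, against 13.7% of all) and 2 were lower (7.69%, against 13.1%). The higher ones of Ndufa5, Ndufa9 and Ndufb2, which counts with 2 probe sets, lie on chromosome 6. There 33.3% of all compared probe sets were higher in OP9. The others were Ndufab1 and Ndufv3. The 2 lower ones lie on chromosome 15, where 42.5% of all were lower. The 9 probe sets of the catalytic core subunits of complex I had ratios under 1.5-fold with a median log2 ratio of 0.14. The difference between the groups of subunits was not tested. Ndufab1, the mitochondrial acyl carrier protein, read 295 in AGM-s3-A9, 584 in OP9 and 310 in AGM-s3-A7. OP9 was the high line, by 1.89-fold over AGM-s3-A7, and the AGM lines differed by 1.05-fold. Ndufa6 and Ndufb9 belong to the LYR family, whose members in complex I are known to bind the acyl carrier protein, and they ran the other way. Ndufa6 read 207 in AGM-s3-A9, 179 in OP9 and 300.1 in AGM-s3-A7. Ndufb9 read 527 in AGM-s3-A9, 544 in OP9 and 885 in AGM-s3-A7. Both were highest in AGM-s3-A7, with Ndufa6 1.68-fold and Ndufb9 1.63-fold lower in OP9.

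Ndufb2, an accessory subunit of the membrane arm, was measured by 2 bright probe sets that gave the same order of lines. The first read 1144 in AGM-s3-A9, 1958 in OP9 and 1079 in AGM-s3-A7, and the second 956, 1438 and 814 in the same order. OP9 was 1.82-fold and 1.77-fold above AGM-s3-A7. A dim probe set on MG-U74C read 57.8 in AGM-s3-A9, 71.8 in OP9 and 38.5 in AGM-s3-A7, and its ratio of OP9 over AGM-s3-A7 was at least 1.17-fold. Ndufa5, an accessory subunit of the arm that takes up electrons, read 869 in AGM-s3-A9, 1365 in OP9 and 759 in AGM-s3-A7, 1.80-fold higher in OP9 than AGM-s3-A7. Ndufa9, which joins the peripheral and membrane arms, read 510 in AGM-s3-A9, 996 in OP9 and 648 in AGM-s3-A7. OP9 was again the high line, here with AGM-s3-A9 the lowest: the fold was 1.54 for OP9 over AGM-s3-A7, and AGM-s3-A9 was 1.95-fold below OP9. Ndufv3, a small subunit of the flavoprotein part, read 397 in AGM-s3-A9, 520 in OP9 and 314 in AGM-s3-A7 (1.66-fold higher in OP9 than AGM-s3-A7).

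**Figure D2:**
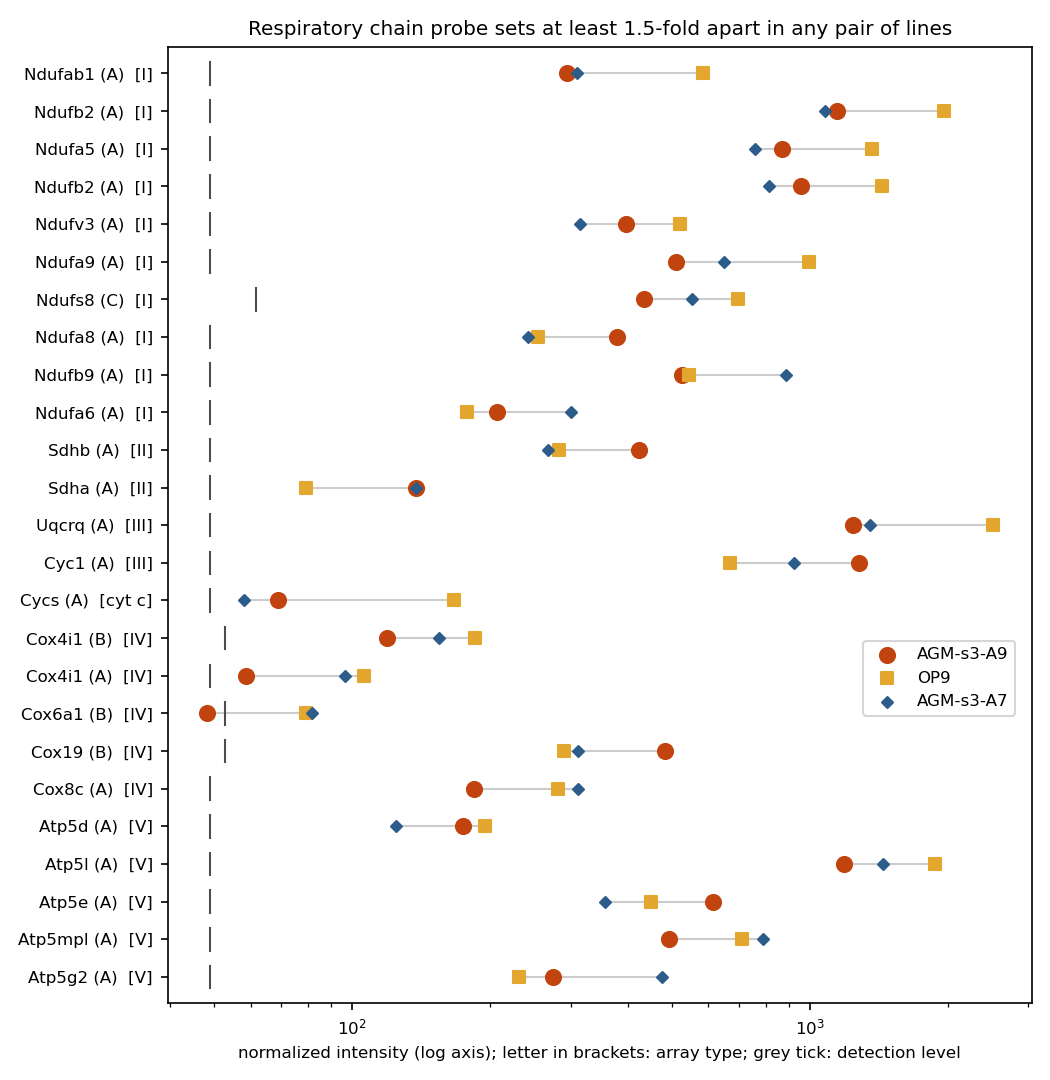
Normalized intensity (log axis) in AGM-s3-A9 (circles), OP9 (squares) and AGM-s3-A7 (diamonds) for the 25 respiratory chain probe sets at least 1.5-fold apart in any pair, by complex; the letter in brackets is the array type, the grey tick its detection level. OP9 stands to the right of both AGM lines for Ndufab1 (584), both Ndufb2 probe sets (1958 and 1438), Uqcrq (2508) and Cycs (167), and AGM-s3-A7 stands to the right for Ndufb9 (885), Ndufa6 (300.1) and Atp5g2 (476).

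In complexes II and III, the members that were at least 1.5-fold apart differed in which line was high. Sdha, the flavoprotein that oxidises succinate, read 138 in AGM-s3-A9, 79.2 in OP9 and 138 in AGM-s3-A7. OP9 was the low line, 1.74-fold below AGM-s3-A7, while the AGM lines were equal after normalization. Sdhc, a membrane anchor of the same complex, read 976 in AGM-s3-A9, 1188 in OP9 and 871 in AGM-s3-A7, 1.36-fold in the other direction. In complex III, Uqcrq, a small subunit near the coenzyme Q site, read 1240 in AGM-s3-A9, 2508 in OP9 and 1356 in AGM-s3-A7. OP9 was 1.85-fold above AGM-s3-A7, with the AGM lines close to each other. Its neighbours in the complex were not at least 1.5-fold apart in this pair: Uqcrc1, a core subunit, was 1.27-fold higher in OP9 than AGM-s3-A7, and Uqcrc2, the other core subunit, was 1.13-fold lower.

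In complex V, Atp5g2 showed the largest difference in the direction of AGM-s3-A7. It is 1 of several genes for subunit c, which forms the rotor ring in the membrane. Its bright probe set, which carries a suffix, read 275 in AGM-s3-A9, 232 in OP9 and 476 in AGM-s3-A7. Both supportive lines lay below AGM-s3-A7 there, AGM-s3-A9 by 1.73-fold and OP9 by 2.05-fold. The only Atp5g2 probe set without a suffix was not detected, at 5.92 in AGM-s3-A9, 27.7 in OP9 and 27.6 in AGM-s3-A7. A dim probe set on MG-U74C, with a suffix, gave the other order, at 58.4 in AGM-s3-A9, 65.1 in OP9 and 21.5 in AGM-s3-A7. On it OP9 exceeded the detection level by at least 1.06-fold and the other lines were below it. Atp5d, the delta subunit of the ATP synthase, was higher in OP9 than AGM-s3-A7 on 1 of its 4 detected probe sets. That probe set read 175 in AGM-s3-A9, 195 in OP9 and 125 in AGM-s3-A7. The other detected ones gave log2 ratios between -0.15 and 0.34.

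The promoters of Cycs and Atp5g2 are printed because these genes lay at opposite ends of the OP9 over AGM-s3-A7 ratios. That of Cox6a1 is printed as an example that holds both motifs searched for, as those of Atp5l and Sdhd also do. The motifs were chosen with the values known. Nuclear respiratory factor 1 and the ETS factor GABP are known regulators of respiratory chain promoters. The letters CGCANGCG (NRF1 core) and CCGGAAG (ETS and GABP core) were searched on both strands of the 250 bases before the start of each gene, in RefSeq promoters of GRCm38.p6, which held 73 of the 90 genes. Each line reads 5′ to 3′ on the gene's strand and ends at the last base before the start, with motif matches in capitals. The Cycs promoter is chr6:50566570-50566819, minus strand, that of Atp5g2 chr15:102671048-102671297, minus strand, and that of Cox6a1 chr5:115348959-115349208, minus strand.
Cycs: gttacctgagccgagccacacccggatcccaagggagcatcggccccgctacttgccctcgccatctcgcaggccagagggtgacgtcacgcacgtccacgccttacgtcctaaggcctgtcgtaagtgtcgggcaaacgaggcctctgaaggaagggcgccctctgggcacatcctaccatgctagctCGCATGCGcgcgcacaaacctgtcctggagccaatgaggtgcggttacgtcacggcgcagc
Atp5g2: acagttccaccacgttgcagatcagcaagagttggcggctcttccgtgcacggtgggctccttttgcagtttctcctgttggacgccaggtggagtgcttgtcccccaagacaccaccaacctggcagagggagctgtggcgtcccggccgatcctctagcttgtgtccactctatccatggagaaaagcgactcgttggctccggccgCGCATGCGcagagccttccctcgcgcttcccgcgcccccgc
Cox6a1: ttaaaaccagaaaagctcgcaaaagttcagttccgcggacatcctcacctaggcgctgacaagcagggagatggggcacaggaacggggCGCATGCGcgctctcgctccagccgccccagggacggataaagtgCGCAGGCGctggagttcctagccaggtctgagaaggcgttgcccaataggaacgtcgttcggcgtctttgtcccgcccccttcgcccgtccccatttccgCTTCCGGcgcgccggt

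The NRF1 core stood in 14 of 73 respiratory chain promoters (19.2%), against 6.94% of all 27025 promoters, 23.3% of proteasome promoters and 13.5% of cytosolic ribosomal ones. The ETS and GABP core stood in 15 of 73 (20.5%), against 7.05% of all, 30% of proteasome promoters and 35.1% of cytosolic ribosomal ones. Complex V had the NRF1 core in 4 of 12 promoters, complex I in 6 of 35 and complex IV in 1 of 18. Cycs and Atp5g2 each held the NRF1 core 1 time, in identical letters, with its first base 61 and 41 bases before the start. Their OP9 over AGM-s3-A7 log2 ratios were 1.53 and -1.04. A match is a description of letters and not evidence of binding.

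Between AGM-s3-A9 and AGM-s3-A7, the chain differed little. The log2 ratio was positive for 50 of 86 probe sets (58.1%), against 49.0% of all 13139 compared probe sets. Its median was 0.08 (25th to 75th percentile -0.17 to 0.24), against -0.01 over all of them. At 1.5-fold, 4 probe sets were higher and 6 lower in AGM-s3-A9, against a background of 9.8% higher and 9.22% lower (2 and 3 without suffix probe sets, and 7 of 107 higher with the floor at the array median, against 12.1% of all), and none was 2-fold apart, against 2.88% and 2.18% of all. The medians were 0.08 for complex I, 0.19 for complex II, 0.19 for complex III, -0.03 for complex IV and -0.01 for complex V.

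The 4 probe sets higher in AGM-s3-A9 came from 4 complexes. Atp5e, the epsilon subunit in the stalk of the ATP synthase, read 613 in AGM-s3-A9, 450.0 in OP9 and 357 in AGM-s3-A7, 1.72-fold higher in AGM-s3-A9 than AGM-s3-A7, with OP9 between them. Sdhb, the iron-sulfur subunit of complex II, read 422 in AGM-s3-A9, 283 in OP9 and 268 in AGM-s3-A7. AGM-s3-A9 was 1.57-fold above AGM-s3-A7 there, and a second Sdhb probe set, on MG-U74B, gave 157, 142 and 137 in the same order, 1.15-fold. Ndufa8, an accessory subunit of complex I, read 378 in AGM-s3-A9, 255 in OP9 and 242 in AGM-s3-A7 (1.56-fold higher). Cox19, an assembly factor that takes part in delivering copper to complex IV, read 482 in AGM-s3-A9, 291 in OP9 and 312 in AGM-s3-A7, 1.54-fold higher. For Sdhb, Ndufa8 and Cox19, OP9 lay at most 1.07-fold from AGM-s3-A7.

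The 6 probe sets lower in AGM-s3-A9 came from complexes I, IV and V. Apart from Ndufb9 and Atp5g2, given above, they were Atp5mpl, Cox8c, Cox4i1 and Cox6a1. Atp5mpl, a small proteolipid of the ATP synthase, read 492 in AGM-s3-A9, 711 in OP9 and 789 in AGM-s3-A7, 1.60-fold lower in AGM-s3-A9 than AGM-s3-A7. Cox4i1, the widely used form of a regulatory subunit of complex IV, read 58.6 in AGM-s3-A9, 106 in OP9 and 96.5 in AGM-s3-A7 on MG-U74A, a 1.65-fold difference between the AGM lines. On MG-U74B it read 119 in AGM-s3-A9, 186 in OP9 and 155 in AGM-s3-A7, 1.31-fold lower in AGM-s3-A9 than AGM-s3-A7. AGM-s3-A9 was the lowest line on both of these probe sets, which carry a suffix. The only Cox4i1 probe set without a suffix was not detected, at 48.2 in AGM-s3-A9, 35.3 in OP9 and 44.5 in AGM-s3-A7. There AGM-s3-A9 was the highest line. Cox6a1 read 48.1 in AGM-s3-A9, 79.3 in OP9 and 81.5 in AGM-s3-A7 on MG-U74B, where AGM-s3-A9 was below detection and at least 1.54-fold lower than AGM-s3-A7. Its probe set on MG-U74A did not show this, at 1687 in AGM-s3-A9, 2082 in OP9 and 1537 in AGM-s3-A7.

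Complex IV has subunits with copies used in heart and skeletal muscle or in testis. Of 14 probe sets for 6 such genes, 3 were detected. Cox6a2, the heart and muscle partner of Cox6a1, read 7.89 in AGM-s3-A9, 62.0 in OP9 and 38.3 in AGM-s3-A7, so that only OP9 passed the level, by at least 1.26-fold. Cox8b, a heart and muscle form, read 55.9 in AGM-s3-A9, 59.3 in OP9 and 51.3 in AGM-s3-A7, all close above the level, on a probe set with a suffix; its other probe set was not detected in any line, at 6.96, 13.5 and 8.73 in the same order. Cox8c, known as a testis form, read 185 in AGM-s3-A9, 281 in OP9 and 312 in AGM-s3-A7, 1.69-fold lower in AGM-s3-A9 than AGM-s3-A7, while its other 4 probe sets were not detected. Cox7a1, Cox6b2 and Cox7b2 were not detected. Of the 2 muscle markers detected in any line, Myh4 had the same order of lines as Cox6a2, at 27.2 in AGM-s3-A9, 60.7 in OP9 and 36.6 in AGM-s3-A7, and passed the level in OP9 alone. Actc1 had another order, at 680 in AGM-s3-A9, 294 in OP9 and 832 in AGM-s3-A7. The part of muscle markers in these values was not tested.

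Between the 2 supportive lines, the chain was slightly lower in AGM-s3-A9 than OP9. The log2 ratio was positive for 35 of 92 probe sets (38.0%), against 47.0% of all 13443 compared probe sets. Its median was -0.14 (25th to 75th percentile -0.36 to 0.12), against -0.03 over all of them. This median too is smaller in size than the span between probe sets of 1 gene. In this pair the other gene lists described below had medians from -0.40 (mitochondrial import and proteases) to -0.05 (cytosolic ribosomal proteins). The proteasome stood at -0.11 and mitochondrial ribosomal proteins at -0.10. At 1.5-fold, 3 probe sets were higher and 13 lower in AGM-s3-A9, against a background of 13.1% higher and 14.1% lower. The 13 lower make up a share near the background, while the 3 higher are fewer than that share would give. Without suffix probe sets 7 were lower, and with the floor at the array median 8 were higher. At 2-fold none was higher and 2 were lower (Cycs and Uqcrq), against 5.96% and 4.63% of all. The medians were -0.19 for complex I, 0.14 for complex II, 0.05 for complex III, -0.30 for complex IV and 0.02 for complex V. These 3 pairs share arrays, so the values of a pair are not independent of the other two.

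Many of the 13 were the members that stood out in OP9 against AGM-s3-A7 as well: Ndufab1 was 1.98-fold lower in AGM-s3-A9 than OP9, Uqcrq 2.02-fold, Ndufa5 1.57-fold and the first Ndufb2 probe set 1.71-fold. Others were not 1.5-fold apart between OP9 and AGM-s3-A7. Ndufs8, an iron-sulfur core subunit of complex I, read 433 in AGM-s3-A9, 696 in OP9 and 554 in AGM-s3-A7, 1.61-fold lower in AGM-s3-A9 than OP9. Atp5l, the g subunit of the ATP synthase membrane part, read 1189 in AGM-s3-A9, 1877 in OP9 and 1442 in AGM-s3-A7, 1.58-fold lower. In both, AGM-s3-A7 lay between the supportive lines. The 2 detected Cox4i1 probe sets, both with a suffix, were 1.81-fold and 1.56-fold lower. Ndufa5 and Cox8c missed 1.5-fold in this pair under all 4 other scalings of the arrays. Under at least 1 of them Atp5l missed it in this pair, Ndufa9 for OP9 over AGM-s3-A7 and Cox19 for AGM-s3-A9 over AGM-s3-A7.

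The 3 higher probe sets were Sdha (1.74-fold), Cox19 (1.66-fold) and Cyc1. Cyc1 encodes cytochrome c1, the subunit of complex III that hands electrons to cytochrome c. A probe set with a suffix read 1281 in AGM-s3-A9, 669 in OP9 and 922 in AGM-s3-A7, 1.92-fold higher in AGM-s3-A9 than OP9, and the other read 1638, 1310 and 1436 in the same order, 1.25-fold higher. Both gave the order AGM-s3-A9, AGM-s3-A7, OP9 from high to low. Cyc1 and Cycs, the donor and the carrier, thus had log2 ratios of opposite sign between AGM-s3-A9 and OP9.

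Of the 13 respiratory chain probe sets that passed 1.5-fold between OP9 and AGM-s3-A7, 8 lay on chromosomes 6 and 15. Of all compared probe sets, 227 of the 1842 higher in OP9 lay on chromosome 6 and 228 of the 1768 lower on chromosome 15. Among all compared probe sets of genes on chromosome 6, 33.3% were higher in OP9, with a median log2 ratio of 0.33. On chromosome 15, 42.5% were lower, with a median of -0.49. Position along a chromosome was not examined. Chromosome 6 carries Cycs, Ndufa5, Ndufa9 and Ndufb2, and 5 of their 6 compared probe sets were higher in OP9, with a median of 0.83. Chromosome 15 carries Atp5g2, Ndufa6, Ndufb9, Cox6c and Cyc1, and 3 of their 7 probe sets were lower in OP9, at a median log2 ratio of -0.49, equal to that of all genes of the chromosome. Cox6c, a small subunit of complex IV, read 2317 in AGM-s3-A9, 2092 in OP9 and 2944 in AGM-s3-A7, with a log2 ratio of -0.49 for OP9 over AGM-s3-A7. On all other chromosomes, 4 of 79 respiratory chain probe sets were higher in OP9 (Ndufab1, Uqcrq, Ndufv3 and Atp5d) and 1 was lower (Sdha), with a median of 0.16, against 0.03 for all genes there. Sdha lies on chromosome 13, where all genes had a median of -0.25. The median in OP9 was thus about as large without chromosomes 6 and 15 as with them.

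Between AGM-s3-A9 and AGM-s3-A7, 20.1% of all compared probe sets on chromosome 15 were lower in AGM-s3-A9, with a median of -0.19, and 2 of 6 of the chain's probe sets there (Atp5g2 and Ndufb9) were lower, with a median of -0.44. Shifts of similar size in this pair lay on chromosomes 2 (0.22 for all genes, with Atp5e and Ndufa8), 4 (0.19, with Sdhb), 8 (-0.20, with Cox4i1), 12 (-0.20, with Atp5mpl and Cox8c) and 14 (0.20, with no compared member). Cox19 and Cox6a1, also at least 1.5-fold apart in this pair, lie on chromosome 5, with a median of -0.06 over all genes. How many of all called probe sets lay on a chromosome shifted in their own direction was not counted. The median of the chain's own compared probe sets was 0.50 on chromosome 2 and -0.43 on chromosome 12. On chromosome 6 all genes had a median of -0.02 in this pair, and none of the 5 respiratory chain probe sets passed 1.5-fold. Between AGM-s3-A9 and OP9, 35.1% of all compared probe sets on chromosome 6 were lower in AGM-s3-A9, with a median of -0.33, and 5 of 6 of the chain's probe sets, with a median of -0.71. On chromosome 15, 27% of all were higher in AGM-s3-A9 than OP9, with a median of 0.28, and 1 of 7 of the chain's (Cyc1), with a median of 0.21. Chromosome 12, which carries Cox8c, had a median of -0.32 over all genes in this pair. The part of these shifts by chromosome in the members' values was not tested.

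**Figure D3:**
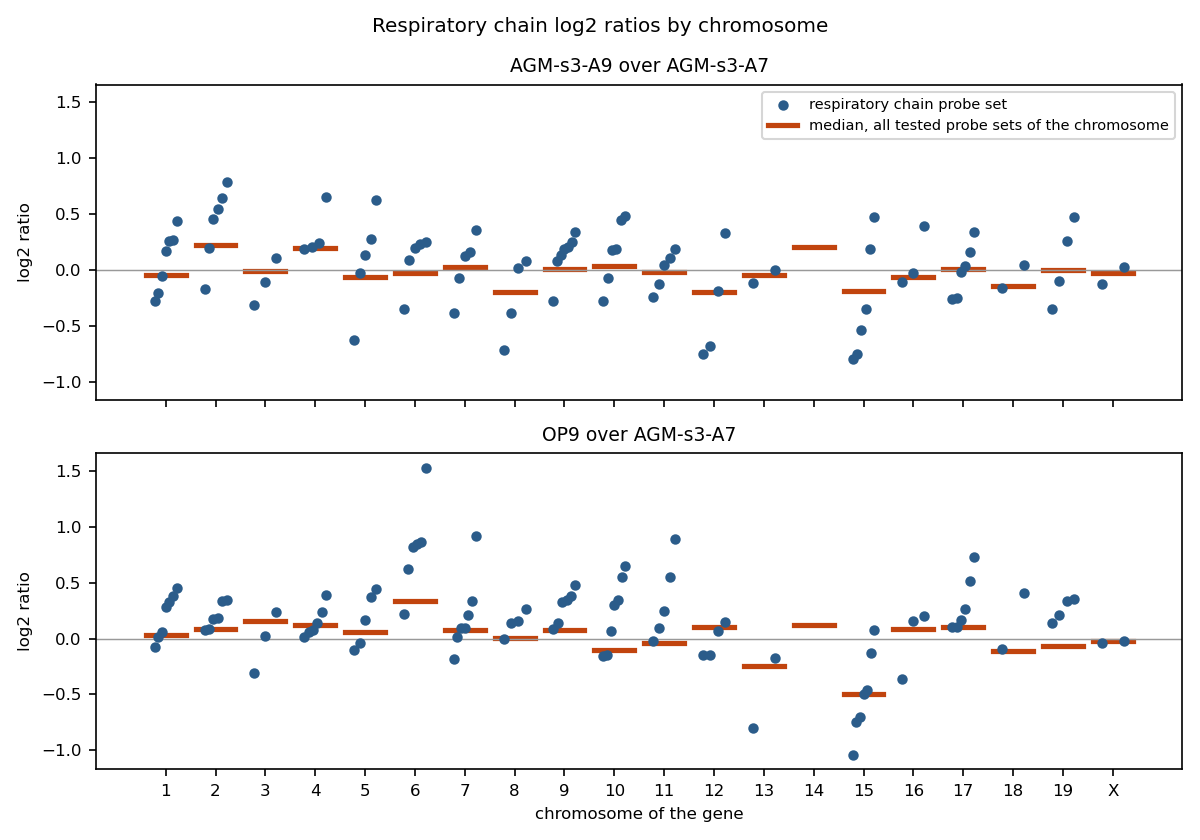
Log2 ratios of respiratory chain probe sets (points) by chromosome of the gene, with the median of all compared probe sets of that chromosome (red bars), for AGM-s3-A9 over AGM-s3-A7 and OP9 over AGM-s3-A7. In the OP9 panel the bars for chromosomes 6 and 15 stand at 0.33 and -0.49, with Cycs the highest point at 1.53 on chromosome 6 and Atp5g2 the lowest at -1.04 on chromosome 15.

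Other genes of mitochondrial function were read from lists chosen with earlier results of these data known. For OP9 over AGM-s3-A7, the list of mitochondrial import proteins, chaperones and proteases had the highest median of those compared, 0.35, with 12 of 34 probe sets higher and none lower. Hspa9, the matrix chaperone that pulls proteins in, read 528 in AGM-s3-A9, 2007 in OP9 and 921 in AGM-s3-A7. Tomm70a, a receptor of the outer membrane, read 167 in AGM-s3-A9, 494 in OP9 and 207 in AGM-s3-A7. Lonp1, a matrix protease, read 112 in AGM-s3-A9, 287 in OP9 and 124 in AGM-s3-A7. OP9 was the high line for these 3 genes, with log2 ratios over AGM-s3-A7 of 1.12, 1.26 and 1.21, more than any respiratory chain member except Cycs.

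Mitochondrial ribosomal proteins had a median of 0.17 in the same pair, with 11 of 78 probe sets higher and 2 lower. Mrps6, of the small subunit, read 302 in AGM-s3-A9, 561 in OP9 and 145 in AGM-s3-A7, so that both supportive lines were above AGM-s3-A7. Assembly factors outside the naming rule had a median of 0.11, with 6 of 28 higher and 1 lower. Among them Tmem126a, an assembly factor of complex I, read 183 in AGM-s3-A9, 459 in OP9 and 167 in AGM-s3-A7. Sdhaf1, which helps to mature Sdhb, read 127 in AGM-s3-A9, 278 in OP9 and 115 in AGM-s3-A7, while Sdhb itself was 1.06-fold higher in OP9 than AGM-s3-A7. Uqcc3, a complex III assembly factor, was lower in OP9, at 80.4 in AGM-s3-A9, 48.7 in OP9 and 128 in AGM-s3-A7, with OP9 below detection. Coenzyme Q and cytochrome c maturation genes had a median of 0.28 (5 of 22 higher, 1 lower), carriers and porins 0.22 (2 of 18 higher, 1 lower), tricarboxylic acid cycle and pyruvate dehydrogenase genes 0.10 (5 of 25 higher, 1 lower), proteasome subunits 0.15 (5 of 42 higher, 1 lower) and cytosolic ribosomal proteins 0.05 (1 of 33 higher, none lower). Against the background of 13.7% higher, the shares of mitochondrial ribosomal proteins (14.1%), proteasome (11.9%) and carriers (11.1%) lay near it. Those of coenzyme Q and cytochrome c maturation genes (22.7%), other assembly factors (21.4%) and tricarboxylic acid cycle genes (20%) lay above it. That of cytosolic ribosomal proteins was 3.03%, and that of import proteins, chaperones and proteases was 35.3%. The shares lower were at most 5.56% (carriers), against a background of 13.1%. The chain's own median of 0.15 was equal to that of the proteasome.

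**Figure D4:**
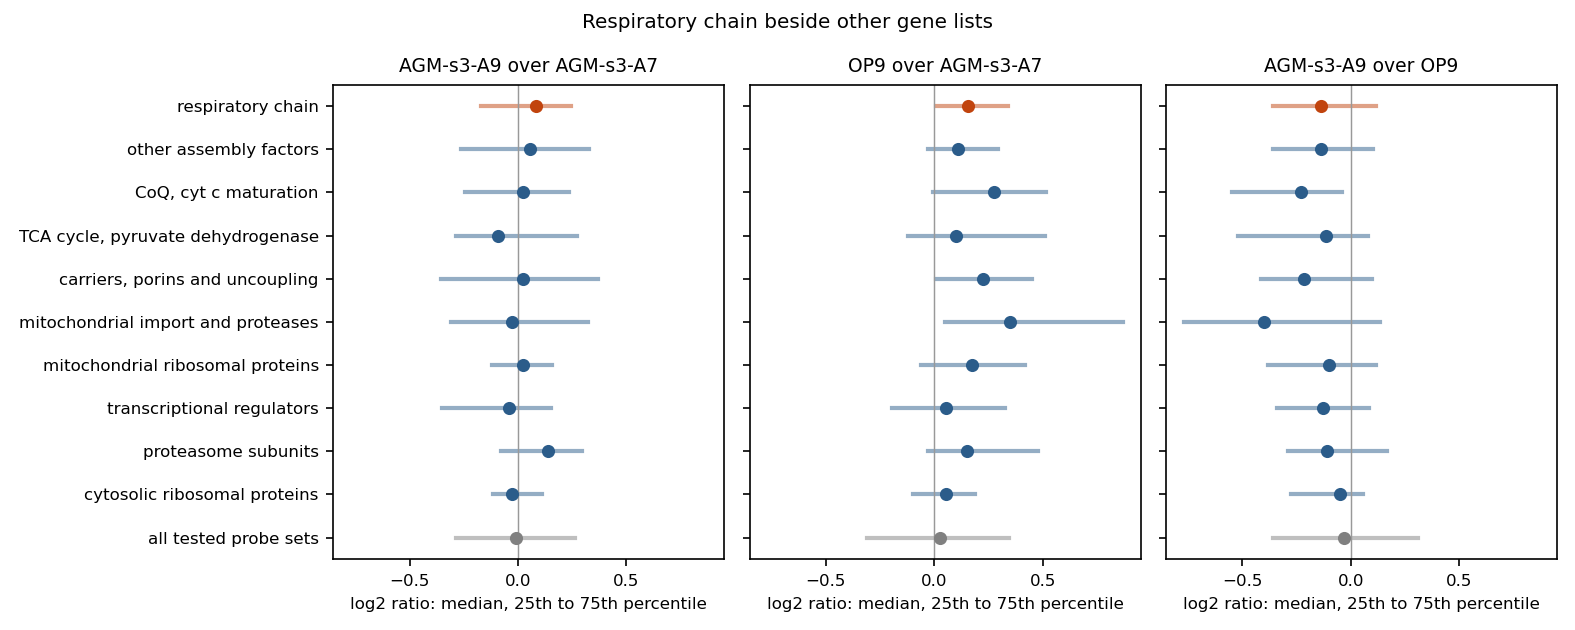
Median log2 ratio (points) and 25th to 75th percentile (bars) for the respiratory chain (red), other gene lists (blue) and all compared probe sets (grey) in each pair of lines. For OP9 over AGM-s3-A7 the chain stands at 0.15, mitochondrial import and proteases at 0.35, the proteasome at 0.15 and all compared probe sets at 0.03.

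For AGM-s3-A9 over AGM-s3-A7, list medians lay between -0.09 (tricarboxylic acid cycle and pyruvate dehydrogenase, 4 of 25 higher, none lower) and 0.14 (proteasome, 5 of 42 higher, none lower). The shares higher were 16% and 11.9%, against a background of 9.8%, so that of the proteasome lay near it. The background lower was 9.22%. In the first of these lists the largest differences were those of Pdk1 and Pdk4, kinases that switch off pyruvate dehydrogenase. Pdk1 read 128 in AGM-s3-A9, 31.8 in OP9 and 44.4 in AGM-s3-A7, so that only AGM-s3-A9 passed the level, at least 2.62-fold above AGM-s3-A7. Pdk4 read 464 in AGM-s3-A9, 140 in OP9 and 284 in AGM-s3-A7, and Pdk3 read 311, 582 and 269 in the same order. AGM-s3-A9 was thus the high line for Pdk1 and Pdk4 and OP9 for Pdk3. Sqor, which feeds electrons from hydrogen sulfide into coenzyme Q, read 331 in AGM-s3-A9, 92.9 in OP9 and 165 in AGM-s3-A7.

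Regulators of mitochondrial genes had medians near those of all genes. The median was -0.04 for AGM-s3-A9 over AGM-s3-A7 (3 of 27 higher, 3 lower). It was 0.05 for OP9 over AGM-s3-A7 (4 of 28 higher, 2 lower). Their shares higher, 11.1% and 14.3%, lay near the backgrounds of 9.8% and 13.7%. Their shares lower were 11.1% and 7.14%, against 9.22% and 13.1%. Esrra, a nuclear receptor that activates respiratory chain genes, read 166 in AGM-s3-A9, 88.8 in OP9 and 95.4 in AGM-s3-A7. Tfb2m, a mitochondrial transcription factor, read 99.4 in AGM-s3-A9, 226 in OP9 and 146 in AGM-s3-A7. Myc read 85.5 in AGM-s3-A9, 169 in OP9 and 177 in AGM-s3-A7. Each of the 3 supplied a different order of lines: AGM-s3-A9 was high for Esrra, OP9 for Tfb2m, and AGM-s3-A9 was low for Myc. Nrf1, which encodes nuclear respiratory factor 1, read 73.9 in AGM-s3-A9, 101 in OP9 and 120 in AGM-s3-A7.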

How the data were processed

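Total RNA of each line was extracted on RNeasy columns and 6 ug were made into biotinylated cRNA, per the labels' protocols. The authors deposited linear intensities, 1 for each probe set of an array; how the scan was corrected, summarised and scaled is not given in the sources used here. Log2 intensities were quantile normalized within each array type, because 2% trimmed means differed by over 5%, which would remove a general shift of all transcripts. Symbols came from the platform annotation and chromosomes from RefSeq (GRCm38.p6), which held all 165 member probe sets. Detection level, comparison and calls are defined in the results. The ratio calculation was checked on simulated arrays made from the AGM-s3-A7 values, with less noise than the repeated controls showed. This check cannot show how often unchanged probe sets pass 1.5-fold in these data. With 1 array per line and type no test was run, and the number of arrays limits the precision. Candidates for naming were the brightest 3 per complex, those 2-fold apart in any pair and the 5 largest folds per pair and direction. The tissue-restricted copies with their partners and up to 4 members per list and pair were added. Not all candidates are given above. Left out were the bright members Ndufa7, Ndufb5, Uqcrb, Atp5a1, Atp5md and Cox7a2, besides Ndufs3, Cox6b1 and Cox7b. On their brightest probe sets, these bright members had OP9 over AGM-s3-A7 log2 ratios from -0.17 to 0.51, all under 1.5-fold. The genes given thus lean towards those that differ. Others named were chosen after their values were seen. The members and lists were chosen with earlier results of these data known. Alternatives covered scaling, floor, fold, probe set choice, array type and chromosomes. Python 3.11.15, numpy 2.4.6, pandas 2.3.3 and matplotlib 3.10.9 were used.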

Additional observations from a re-analysis of the deposited data

How the results depend on the processing

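Each result was recomputed under 20 alternatives, of which 3 (scaling to hybridization controls, and leaving out chromosome 6 or chromosome 15) were chosen after the data were seen; scaling alternatives are read relative to the median of all compared probe sets. The median of the chain minus that of all compared probe sets kept its sign and stayed within 0.1 of its value under the 19 alternatives that give a median: 0.09 (0.05 to 0.13) for AGM-s3-A9 over AGM-s3-A7, 0.13 (0.11 to 0.15) for OP9 over AGM-s3-A7 and -0.11 (-0.16 to -0.06) for AGM-s3-A9 over OP9. Counts moved more. With a 2-fold threshold, higher and lower counts were 0 and 0, 1 and 1, and 0 and 2 in that order of pairs. With the floor at the array median, the higher counts were 7, 15 and 8, and 9 were lower for OP9 over AGM-s3-A7; with no floor, 14 were higher in that pair. Without probe sets that carry a suffix, AGM-s3-A9 over AGM-s3-A7 had 2 higher and 3 lower, OP9 over AGM-s3-A7 had 5 higher, and AGM-s3-A9 over OP9 had 7 lower. Without chromosomes 6 and 15, OP9 over AGM-s3-A7 had 4 higher and 1 lower and AGM-s3-A9 over OP9 had 8 lower; leaving out chromosome 6 alone gave 4 higher and 8 lower, and chromosome 15 alone 1 lower, in the same pairs. Under each of the 4 other scalings (as deposited, trimmed mean, 75th percentile, hybridization controls), 5 were higher for AGM-s3-A9 over OP9. Apart from fewer probe sets being compared, the cause of these moves was not tested. Of single genes, Ndufa9 (OP9 over AGM-s3-A7, 0.58) missed 1.5-fold under scaling to the trimmed mean or the 75th percentile, Cox8c (-0.54 to -0.49) and Ndufa5 (-0.56 to -0.51) missed it for AGM-s3-A9 over OP9 under all 4 other scalings, and Atp5l (-0.56, same pair) and Cox19 (0.55, AGM-s3-A9 over AGM-s3-A7) with values as deposited. No paired analysis was possible because each line has 1 array per type. Depth of signal limits the 72 probe sets under detection.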

Other observations

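Some respiratory chain genes gave different pictures on different probe sets, which are values without an order of trust. Ndufs1, an iron-sulfur core subunit of complex I, had 3 detected probe sets, whose log2 ratios for AGM-s3-A9 over OP9 ran between -0.27 and 0.51. Atp5c1, the gamma subunit in the central stalk of the ATP synthase, had log2 ratios of -0.26 and 0.26 in the same pair. No gene had probe sets that passed 1.5-fold in opposite directions in 1 pair. Slc25a3, the phosphate carrier that supplies the ATP synthase, read 18.8 in AGM-s3-A9, 55.2 in OP9 and 86.5 in AGM-s3-A7, with AGM-s3-A9 below detection on MG-U74A, whereas its probe set on MG-U74B stayed near the level at 49.4, 52.9 and 40.4 in the same order. Slc25a4, an ADP/ATP carrier, read 1135 in AGM-s3-A9, 1882 in OP9 and 1620 in AGM-s3-A7 on MG-U74B, and 1681, 2076 and 2317 on MG-U74A. AGM-s3-A9 was the low line on both Slc25a4 probe sets, with OP9 high on MG-U74B and AGM-s3-A7 high on MG-U74A. Slc25a10, the dicarboxylate carrier, was highest in AGM-s3-A9, at 143 in AGM-s3-A9, 101 in OP9 and 72.2 in AGM-s3-A7.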
